A study of Mus musculus with 2 samples.

Results

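The Pax genes Pax1, Pax2, Pax3, Pax5, Pax6, Pax7, Pax8 and Pax9 were described across the tissues of the mouse trunk, in single-cell RNA-sequencing of dissected inter-limb somites at embryonic day (E) 9.5 and E11.5. They were taken by symbol and are 8 of the 27998 genes counted. The embryos were C57BL/6 wild type, and neither a transgene nor a treatment was used at either stage. Somites of 3 embryos were pooled into 1 library per stage, so nothing could be compared across replicate libraries, no test was made between stages or tissues, and embryos cannot be told apart within a library. The study addressed the states of muscle progenitors before and during fusion, and the Pax genes serve there as markers of the earliest muscle cells.

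Pax genes encode transcription factors that bind DNA through a paired domain, and they place cells into regional and tissue fates in the embryo. They fall into subfamilies whose members resemble each other in sequence, namely Pax1 with Pax9, Pax2 with Pax5 and Pax8, Pax3 with Pax7, and Pax6, here the sole member of its own. In the trunk, Pax3 and Pax7 are known from the dermomyotome, muscle progenitors and dorsal neural tube, Pax1 and Pax9 from the sclerotome that forms the vertebrae and ribs, Pax2 and Pax8 from the nephric duct and spinal interneurons, and Pax6 from progenitors of the spinal cord.

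To show how near the members are to each other, a coding stretch of the paired box that lies within a single exon of each gene is printed, 5′ to 3′ on the coding strand, from the transcripts of the GENCODE M21 annotation. It is the 90-base window of Pax3 chosen for the highest identity to its least alike member. The other stretches are the best matches to that window. Capitals mark the 42 of 90 bases that are identical in all 8 members.
Pax1: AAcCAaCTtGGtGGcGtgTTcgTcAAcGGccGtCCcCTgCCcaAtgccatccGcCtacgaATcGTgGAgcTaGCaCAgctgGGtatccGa
Pax9: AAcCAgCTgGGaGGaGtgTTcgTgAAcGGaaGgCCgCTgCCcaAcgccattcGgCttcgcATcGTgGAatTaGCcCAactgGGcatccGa
Pax2: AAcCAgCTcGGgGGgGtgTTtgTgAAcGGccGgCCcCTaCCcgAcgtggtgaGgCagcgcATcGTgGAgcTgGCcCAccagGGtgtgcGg
Pax5: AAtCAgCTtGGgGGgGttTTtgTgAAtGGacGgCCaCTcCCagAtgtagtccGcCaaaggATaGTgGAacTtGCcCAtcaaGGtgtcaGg
Pax8: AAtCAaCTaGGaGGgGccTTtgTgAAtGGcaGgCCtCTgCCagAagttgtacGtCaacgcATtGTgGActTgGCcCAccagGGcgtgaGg
Pax3: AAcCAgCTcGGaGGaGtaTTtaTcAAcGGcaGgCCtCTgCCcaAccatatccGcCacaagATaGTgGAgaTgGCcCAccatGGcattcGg
Pax7: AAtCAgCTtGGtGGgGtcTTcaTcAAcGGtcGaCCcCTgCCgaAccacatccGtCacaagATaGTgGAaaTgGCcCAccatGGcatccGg
Pax6: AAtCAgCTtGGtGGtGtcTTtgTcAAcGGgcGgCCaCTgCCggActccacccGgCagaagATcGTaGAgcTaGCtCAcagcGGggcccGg
On GRCm38 these stretches lie Pax1 in exon 2 at chr2:147365753-147365842 on the plus strand, Pax9 in exon 2 at chr12:56696594-56696683 on the plus strand, Pax2 in exon 2 at chr19:44760892-44760981 on the plus strand, Pax5 in exon 2 at chr4:44697584-44697673 on the minus strand, Pax8 in exon 3 at chr2:24444628-24444717 on the minus strand, Pax3 in exon 2 at chr1:78195368-78195457 on the minus strand, Pax7 in exon 2 at chr4:139830255-139830344 on the minus strand and Pax6 in exon 4 at chr2:105683842-105683931 on the plus strand. Within a subfamily 67 to 75 of the 90 bases were identical over 5 pairs, with the highest count for Pax3 and Pax7. Between subfamilies the count was 54 to 66 over 23 pairs, so the ranges did not overlap in this stretch. Since it was chosen for identity to Pax3, the choice itself favours counts with Pax3. Other stretches were not compared.

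The libraries held 10121 (E9.5) and 10167 (E11.5) barcodes, of which 9851 and 9595 passed the filter of at least 200 and fewer than 6500 genes and under 15% mitochondrial UMIs. A UMI (unique molecular identifier) is a random tag that lets copies of one transcript be counted once, and the median cell held 12462 UMIs in the E9.5 and 12479 in the E11.5 library. The libraries shared 30 barcodes. Cells were placed in tissues by 10 marker genes per list, none of them a Pax gene, with at least 3 markers detected and a lead of at least 2 over other tissues. This placed 58.6% of E9.5 and 47.6% of E11.5 cells, and the others are given as cells with no gate. Sclerotome held 1490 and 1111 cells, muscle 302 and 1124, neural tube 2520 and 636, nephric 159 and 11, neural crest 383 and 223, lateral plate 422 and 352, and endothelial 349 and 81. In muscle, 281 cells at E9.5 and 384 cells at E11.5 were progenitors by their markers and 16 and 621 were differentiating. Of the cells gated as neural tube, 2354 and 205 were progenitors and 145 and 425 neurons. The neuron list holds general neuronal genes, so the gate does not separate neurons of the spinal cord from those of sensory ganglia. Each list was detected in its own gate in full, except that 1 of the 10 nephric markers had no UMI in the E9.5 nephric cells. Many cells stood at the lowest number of markers or lead the gate allows, among them 68.9% of muscle cells in the earlier and 24.5% in the later library, and 53.0% and 56.7% of the sclerotome cells.

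Levels are UMIs of a gene per 1000000 UMIs of a class of cells (UPM), and are followed by exact 95% Poisson intervals in parentheses. Shares of cells have Clopper-Pearson intervals where these are given. All intervals cover counting error only. Levels were not compared between genes. Endothelial cells were taken as the background, and whether any of these genes is active in them was not tested. Doublet scores rank barcodes by how likely they are to hold more than a single cell. Among endothelial cells, 10.3% at E9.5 and 13.6% at E11.5 had scores in the highest 5% of their library. The part of doublets in this background was not tested. At E9.5 the share of endothelial cells with a UMI was 6.30% for Pax3, 4.58% for Pax1, 2.01% for Pax6, 1.43% for Pax9, 0.573% for Pax7 and 0.287% each for Pax2 and Pax8, at a median of 14111 UMIs per cell. At E11.5 it was 6.17% for Pax1, 3.70% for Pax3 and 1.23% each for Pax6 and Pax9, at a median of 15455 UMIs. Pax2, Pax5, Pax7 and Pax8 were found in 0 of the 81 endothelial cells of E11.5, which allows a share of up to 3.70%. Such limits are 3 cells of the total, a fixed floor, and are slightly lower than the Clopper-Pearson bound. Median depths were 14504.5 and 16237 UMIs in muscle, 12262.5 and 11272 in sclerotome, 11934 and 9127 in neural progenitors, and 7725 and 9516 in neurons. Muscle was slightly above the endothelial depth. The other classes named were below it, neurons and the E11.5 neural progenitors by the most. Unthinned shares were therefore not matched in depth to this background.

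A Pax transcript was detected in 60.6% of all E9.5 cells and 40.6% of all E11.5 cells. By class, the share with at least 1 member was 89.7% in muscle, 86.8% in nephric, 79.1% in neural crest, 75.5% in sclerotome and 73.0% in neural progenitors at E9.5, against 12.9% in endothelial and 6.64% in lateral plate cells. At E11.5 it was 74.6% in neural progenitors, 68.0% in sclerotome, 61.5% in muscle, 44.4% in neural crest and 40.1% in lateral plate cells, against 9.88% in endothelial cells. Cells with at least 2 members were commonest in the nephric class at E9.5, with 55.3%, and among muscle progenitors at E11.5, with 45.1%.

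**Figure D1:**
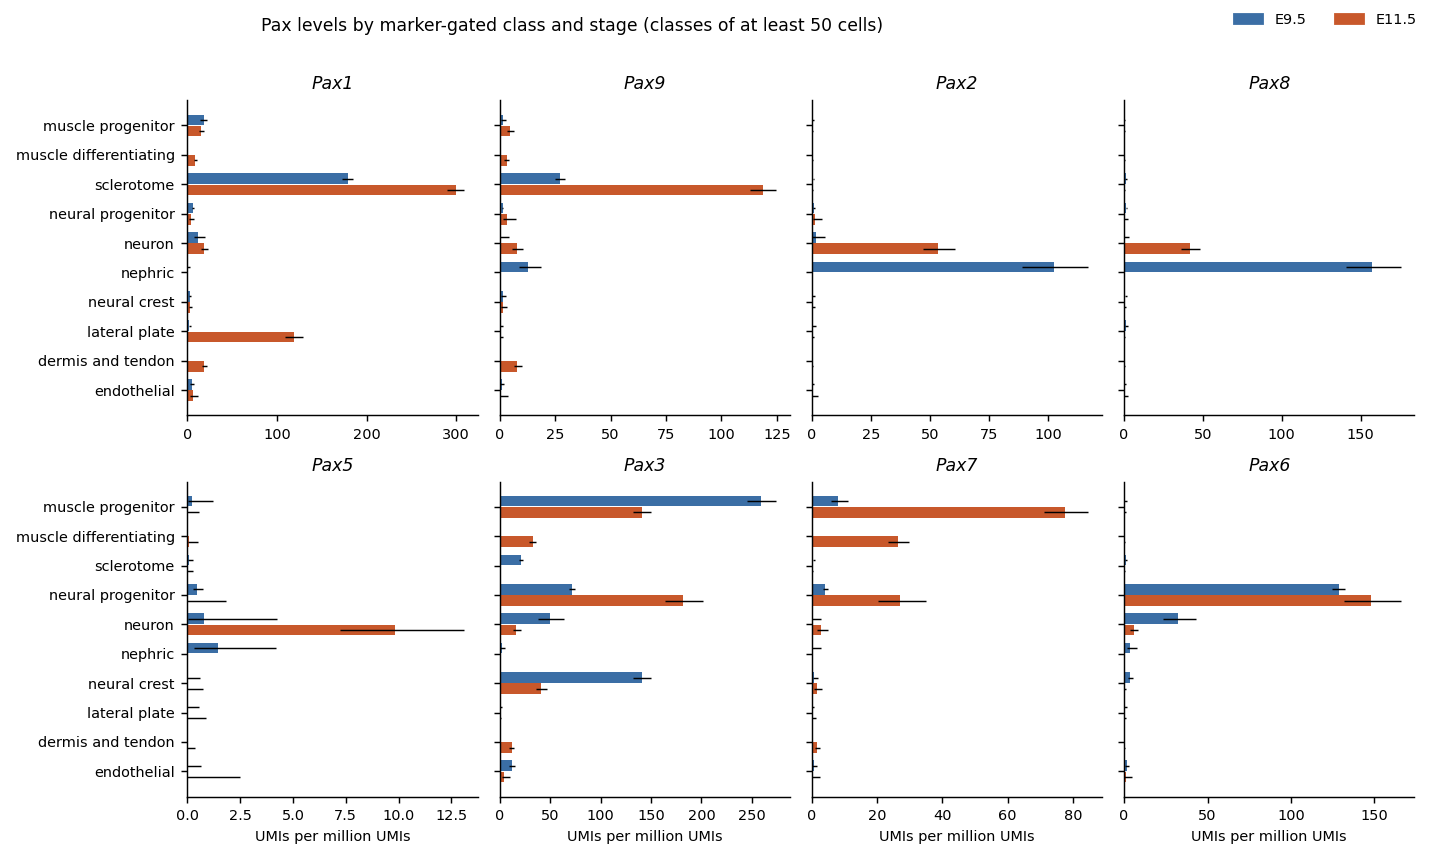
Levels of the 8 Pax genes in UMIs per 1000000 UMIs (horizontal axes, scaled for each gene) in marker-gated classes of at least 50 cells, for E9.5 (blue) and E11.5 (orange), with exact 95% Poisson intervals that cover counting error only. Pax1 and Pax9 were highest in sclerotome, Pax2 and Pax8 in nephric cells at E9.5 and in neurons at E11.5, Pax7 in muscle and neural progenitors, Pax3 in muscle and neural crest at E9.5 and in neural progenitors and muscle progenitors at E11.5, and Pax6 in neural progenitors.

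A gene was counted as restricted where its highest class stood at least 4-fold above the next, and 5.54% of the genes with at least 50 UMIs in the E9.5 library and 9.82% in the E11.5 library met this rule. Only gated classes of at least 50 cells entered, which left out the nephric class at E11.5 and the cells with no gate. Of the 7 members with enough UMIs at E9.5, 4 met it, with Pax1 in sclerotome, Pax2 and Pax8 in nephric cells and Pax6 in the neural tube. At E11.5 it was 5 of 7, with Pax9 in sclerotome, Pax7 in muscle, and Pax2, Pax8 and Pax6 in the neural tube. For Pax2 this rests on leaving out the 11 nephric cells, where it stood at 36.2 (13.3 to 78.7) UPM beside 37.9 (33.4 to 42.8) in the neural tube. For Pax7 it rests on pooling neural progenitors with neurons, with 9.95 UPM in the neural tube and 47.9 in muscle. Neural progenitors alone held Pax7 at 26.9 UPM, and muscle progenitors, at 77.7, stood 2.89-fold above them. Pax3 met it at neither stage, since neural crest cells at E9.5 and the neural tube at E11.5 came next to muscle. Pax5, with 27 UMIs in the E9.5 library and 49 in the E11.5 library, was too sparse for the count.

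Pax1 and Pax9 were highest in sclerotome, the ventral part of the somite. The Pax1 level there was 179 (173 to 185) UPM in the E9.5 cells but 299 (290 to 309) at E11.5, a log2 ratio of 0.74 (0.68 to 0.81). The share of cells with a Pax1 UMI did not follow the level, with 63.7% of E9.5 and 55.3% of E11.5 cells, and 45.4% and 48.1% once each cell was thinned to 5000 UMIs. The Pax9 level was 27.0 (24.8 to 29.4) UPM in E9.5 cells and 119 (113 to 125) in E11.5 cells, a log2 ratio of 2.13 (1.99 to 2.28), and its share of cells was 25.1% and 48.9%. Thinned shares of Pax9 were 12.2% and 34.8%, so level and share were both higher at E11.5. Of the genes with at least 50 UMIs in sclerotome, 14.9% were at least 2-fold higher and 3.83% at least 2-fold lower at E11.5. The median log2 ratio of all genes there was 0.17. Of the 3 members with enough UMIs, Pax9 was higher, Pax3 lower and Pax1 in neither group. The summed sclerotome markers stood at 710 UPM in the earlier and 2156 in the later cells, and their part in the stage differences of Pax1 and Pax9 was not tested.

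Within sclerotome, both genes varied with the other markers of a cell. At E9.5, cells with Uncx, a gene of the caudal half-somite, held Pax1 at 196 (184 to 209) and Pax9 at 34.4 (29.4 to 40.0) UPM, and cells with Tbx18, a gene of the rostral half-somite, held 171 (162 to 181) and 23.2 (19.9 to 26.8) UPM. At E9.5 both genes were thus lower in Tbx18 cells than in Uncx cells by more than counting error. At E11.5 the order differed for Pax1, with 317 (303 to 332) UPM in Uncx cells and 355 (334 to 377) in Tbx18 cells, while the Pax9 intervals overlapped at 137 (128 to 147) and 126 (113 to 139) UPM. A cell can hold several of these markers, which are part of the sclerotome gate, so the groups overlap.

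The E11.5 sclerotome cells were also split by how many of the cartilage genes Col2a1, Col9a1, Cnmd and Acan they held, which are themselves gate markers of sclerotome, in a split chosen after values were seen. Pax1 stood at 173 (144 to 207) UPM in the 62 cells with 1 such gene, 293 (283 to 304) in the 919 with 2, 410 (377 to 445) in the 109 with 3 and 344 (269 to 433) in the 17 with 4. The same groups held Pax9 at 53.5 (37.6 to 73.7), 113 (107 to 119), 195 (173 to 220) and 162 (112 to 227) UPM. Both genes were higher with 3 cartilage genes than with 1 or 2, and the interval of the group with 4 included the value of the group with 3. At E9.5, where 3 cells held 3 of these genes, Pax1 was 214 (192 to 239) UPM in the 123 cells with none, 177 (167 to 188) with 1 and 175 (168 to 183) with 2. The cells with none thus had the higher Pax1 level. Pax9 was 29.0 (20.99 to 39.1), 28.8 (24.8 to 33.2) and 25.9 (23.1 to 28.9) UPM, within counting error of each other.

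Cells with Pax9 more often held Pax1 than cells without it. At E11.5, 404 of the 543 sclerotome cells with Pax9 held Pax1 (74.4%, interval 70.5% to 78.0%), against 37.0% of the cells without Pax9. At 5000 UMIs per cell the shares were 68.5% (63.5% to 73.2%) and 37.2% (33.6% to 40.9%). The thinned shares were nearer at E9.5, with 55.6% (48.0% to 62.9%) and 44.0% (41.3% to 46.8%).

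Outside sclerotome, Pax1 was prominent in a single class, the lateral plate cells of E11.5, which were gated by genes of the limb and body wall such as Hand2, Osr1 and Prrx1. Pax1 stood at 2.09 (1.14 to 3.51) UPM in the lateral plate at E9.5, where its share of 2.61% was below that of endothelial cells, and at 119 (109 to 129) UPM at E11.5, where 39.8% of the cells held it. The E11.5 level in sclerotome was higher still, by a log2 ratio of 1.34 (1.20 to 1.47). Pax9 did not share this pattern. Its 4 UMIs at E9.5 and 1 UMI at E11.5 put it at 0.598 (0.163 to 1.53) and 0.235 (0.00596 to 1.31) UPM in the lateral plate, and the log2 ratio of sclerotome to lateral plate at E11.5 was 8.98 (6.50 to 14.28). This contrast was taken up after values were seen, and 78.7% of the E11.5 lateral plate cells stood at the lowest markers or lead of the gate.

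The E11.5 lateral plate cells with Pax1 were compared with those without it at 5000 UMIs per cell. Prrx1, a homeobox gene of limb and body wall mesenchyme, was higher in the 101 cells with Pax1 than in the 245 without by a log2 ratio of 0.77 (0.53 to 1.01), and was detected in 93.1% and 68.2% of them. Tbx5, the forelimb T-box gene, was lower by a log2 ratio of -1.33 (-2.34 to -0.44), and Gata6 by -1.15 (-2.29 to -0.17). The sclerotome markers Nkx3-2, Uncx, Cnmd and Acan had 0 UMIs in both groups, while the log2 ratios of Sox9 and Tbx18 were 0.62 (-0.29 to 1.50) and 0.40 (-0.27 to 1.04), with intervals that include 0. The shares of cells with Sox9, 3.96% with and 8.98% without Pax1, went the other way from its level. The gate requires a lead of at least 2 markers over other tissues, sclerotome among them. It thus limits the sclerotome markers a cell can hold, with or without Pax1, so their scarcity is no result about these cells. Prrx1, Tbx5, Gata6, Osr1, Pitx1 and Hand2 are themselves gate markers of the lateral plate. By marker, Pax1 stood at 128 (117 to 140) UPM in the cells with Osr1, 123 (110 to 138) with Pitx1, 122 (109 to 136) with Hand2, 99.7 (84.1 to 117) with Tbx5 and 86.5 (71.0 to 104) with Gata6.

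Pax3 and Pax7, the members that mark muscle progenitors, went opposite ways in muscle between the stages. Pax3 stood at 246 (233 to 260) UPM in 85.8% of the E9.5 muscle cells and at 76.3 (72.5 to 80.3) UPM in 40.7% of the E11.5 muscle cells, a log2 ratio of -1.69 (-1.80 to -1.58). Pax7 stood at 8.23 (5.93 to 11.1) UPM in 10.3% and at 47.9 (44.9 to 51.1) UPM in 40.0%, a log2 ratio of 2.54 (2.10 to 3.02). Thinned to 5000 UMIs, Pax3 was in 57.3% and 25.0% of the cells and Pax7 in 2.37% and 19.7%. Of the genes with at least 50 UMIs in muscle, 15.0% were at least 2-fold higher and 4.84% at least 2-fold lower at E11.5. The median log2 ratio of all genes there was 0.02. Of the 4 members with enough UMIs, Pax7 and Pax9 were higher and Pax3 lower, although Pax9 rested on 6 and 67 UMIs.

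The muscle cells of E11.5 were further differentiated. The summed differentiating markers stood at 392 UPM in E9.5 muscle and 8629 UPM in E11.5 muscle, and those of the progenitor list at 809 and 2766 UPM. Among progenitors alone, Pax3 was 259 (245 to 274) UPM at E9.5 but 141 (132 to 150) at E11.5, a log2 ratio of -0.88 (-1.01 to -0.76), and Pax7 was 8.09 (5.73 to 11.1) and 77.7 (71.1 to 84.7), a log2 ratio of 3.26 (2.79 to 3.78). Both directions thus held among progenitors, with a smaller difference for Pax3 and a larger one for Pax7. At E11.5 the differentiating cells held Pax3 at 32.8 (29.5 to 36.4) and Pax7 at 26.4 (23.4 to 29.6) UPM, below the progenitors by log2 ratios of 2.10 (1.92 to 2.28) and 1.56 (1.35 to 1.77).

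The order within E11.5 muscle was resolved by the myogenic factors Myf5, Myod1 and Myog, which come on in turn as muscle cells commit and differentiate. Pax3 was 127 (104 to 153) UPM in cells with none of them, 140 (127 to 154) with Myf5 alone, 152 (138 to 167) with Myod1 and no Myog, and 41.6 (38.2 to 45.3) with Myog. The intervals of the first 3 groups overlapped, and the Myog group was lower than each. Pax7 was 64.5 (48.5 to 84.2), 86.0 (75.9 to 97.1), 58.2 (49.6 to 67.8) and 35.7 (32.5 to 39.1) UPM in the same order, highest with Myf5 alone and lowest with Myog. At E9.5 Pax3 was 263 (240 to 288) UPM with none of the factors, 255 (237 to 274) with Myf5 alone and 152 (122 to 188) in the 29 cells with Myog. The E9.5 level of Pax7 was 11.5 (7.85 to 16.2) UPM with Myf5 alone and 3.45 (1.27 to 7.52) with none, so Pax7 was higher in the Myf5 cells beyond counting error at E9.5, while the same groups had overlapping intervals at E11.5. Myf5, Myod1 and Myog are themselves gate markers of muscle.

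**Figure D2:**
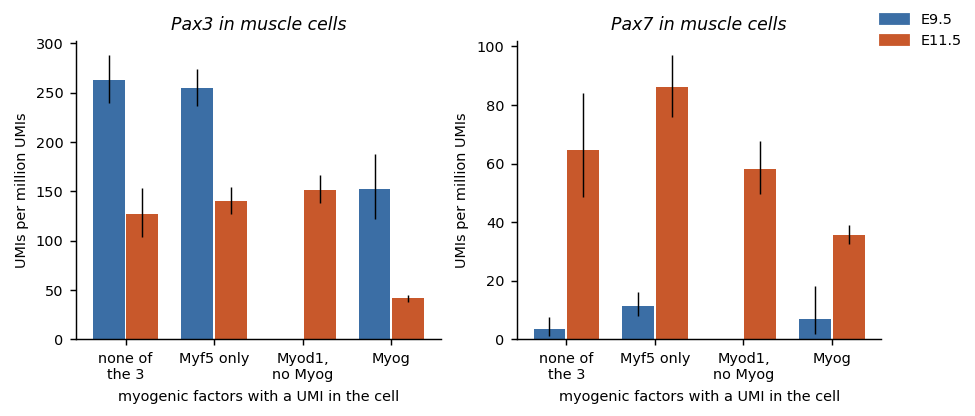
Levels of Pax3 (left) and Pax7 (right) in UMIs per 1000000 UMIs in muscle cells split by the myogenic factors with a UMI in the cell, for E9.5 (blue) and E11.5 (orange), with exact 95% Poisson intervals that cover counting error only. The E9.5 group with Myod1 and no Myog held 1 cell and is not drawn. Pax3 was lowest in Myog cells at both stages, and Pax7 was higher in every E11.5 group than in the E9.5 group beside it.

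Pax3 and Pax7 were found together in many E11.5 muscle cells. Pax3 was detected in 263 of the 450 muscle cells with Pax7 (58.4%, 53.7% to 63.0%) and in 28.9% of those without. Thinned to 5000 UMIs, the shares were 33.0% (26.6% to 39.9%) and 23.1% (20.3% to 26.1%). The excess was not seen within the progenitors, where Pax3 was in 66.5% of the cells with Pax7 and 67.5% of those without, and in 39.4% (30.0% to 49.5%) and 42.9% (36.9% to 49.0%) after thinning. In the differentiating cells, Pax3 was in 39.9% of the Pax7 cells and 15.1% of the others, and after thinning in 20.3% (11.3% to 32.2%) and 9.24% (6.82% to 12.2%), with intervals that overlapped slightly. At E9.5, 30 of the 31 muscle cells with Pax7 held Pax3, against 84.5% of the cells without Pax7.

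The state of E11.5 muscle cells differed with the member detected in them. After thinning, Myog was found in 67.5% of the 647 cells with neither gene, 39.1% of the 138 with Pax7 alone, 22.2% of the 194 with Pax3 alone and 17.6% of the 68 with both. Mymk, which encodes the muscle fusion protein Myomaker, followed the same order with 39.9%, 10.9%, 6.70% and 2.94%. Cells with Pax7 alone thus held Myog more often than cells with Pax3 alone, with intervals of 30.9% to 47.8% and 16.5% to 28.7%. Alone means only that the other gene had no UMI after thinning. Of the Pax7 cells 58.4% held Pax3 at full depth and 33.0% after thinning, so these groups can include cells that hold both genes. Myog and Mymk are also gate markers of differentiating muscle. Myf5 was found in 27.8% of cells with neither gene, 38.1% with Pax3 alone, 44.2% with Pax7 alone and 36.8% with both.

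Pax3 was low in sclerotome and lower still at E11.5. It stood at 21.1 (19.2 to 23.2) UPM in 10.5% of the E9.5 cells, above the 6.30% of endothelial cells, and at 0.299 (0.0814 to 0.765) UPM at E11.5, where 4 cells held 1 UMI each. The log2 ratio was -6.14 (-8.03 to -4.78). The E9.5 sclerotome cells with Pax3 held Pax1 less often, with 45.2% against 65.9% of the cells without Pax3, and 20.2% (12.3% to 30.4%) against 47.0% (44.3% to 49.6%) after thinning. In E9.5 muscle, conversely, Pax1 stood at 18.2 (14.7 to 22.3) UPM in 11.6% of cells, and Pax3 was found after thinning in 22.2% (6.41% to 47.6%) of the cells with Pax1 and 59.6% (53.5% to 65.4%) of those without. The summed muscle progenitor markers in sclerotome were 286 UPM in the earlier and 219 UPM in the later cells, and their part in the Pax3 level was not tested.

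Neural crest cells, gated by genes such as Sox10 and Erbb3, held Pax3 at 141 (132 to 150) UPM in 76.2% of E9.5 cells and 41.1 (35.6 to 47.2) UPM in 40.4% of those of E11.5, a log2 ratio of -1.78 (-2.01 to -1.55). In neural crest 13.2% of genes were at least 2-fold higher and 4.28% at least 2-fold lower at E11.5, and Pax3, the only member with enough UMIs, was among the lower. Pax7 was rare there, with 5 UMIs in the earlier and 8 in the later library. Of the endothelial cells' genes, 6.08% were higher and 3.07% lower at E11.5 by the same rule, and Pax3, again the only member with enough UMIs, was lower with 66 and 7 UMIs.

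In the neural tube, the stage differences of Pax3 and Pax6 depended on whether progenitors or neurons were taken. Pax3 was 71.5 (68.7 to 74.4) UPM in E9.5 progenitors and 182 (164 to 201) in those of E11.5, a log2 ratio of 1.35 (1.18 to 1.51), but 49.6 (38.3 to 63.3) and 16.5 (13.1 to 20.6) UPM in neurons, a log2 ratio of -1.58 (-2.08 to -1.09). Pax7 was 4.12 (3.46 to 4.86) and 26.9 (20.2 to 35.1) UPM in progenitors, a log2 ratio of 2.71 (2.23 to 3.17), and in neurons it had 0 and 14 UMIs. Pax6 was 129 (125 to 133) and 148 (132 to 166) UPM in progenitors, a log2 ratio of 0.20 (0.03 to 0.37), and 32.1 (23.1 to 43.4) and 5.66 (3.73 to 8.23) UPM in neurons. Progenitors exceeded neurons in Pax6 at both stages, by log2 ratios of 2.00 (1.57 to 2.48) and 4.71 (4.14 to 5.33).

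Because neurons were few at E9.5 and the larger group at E11.5, the pooled neural tube gave other values. Pooled, the log2 ratio of E11.5 to E9.5 was -0.09 (-0.24 to 0.05) for Pax3, 1.34 (0.90 to 1.76) for Pax7 and -1.34 (-1.50 to -1.18) for Pax6. The direction of Pax6 was thus opposite in the pool and among progenitors. Among progenitors, however, its ratio of 0.20 was near the median log2 ratio of all genes there, 0.17. Neurons of sensory ganglia can be among the neurons and in the pool, and their part in these values was not tested. In progenitors, 14.0% of genes were at least 2-fold higher and 6.13% at least 2-fold lower at E11.5. Of the 6 members with enough UMIs, Pax3, Pax7 and Pax9 were higher and Pax8 was lower, although Pax9 and Pax8 rested on 7 UMIs and 1 UMI at E11.5. In neurons 19.3% of genes were higher and 5.47% lower. Of the 5 members with enough UMIs there, Pax2 and Pax8 were higher and Pax3 and Pax6 lower. In the pooled neural tube 24.4% of genes were higher and 8.89% lower, and 6 of the 8 members were higher and 1, Pax6, lower.

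The domains of the progenitors, described next, also differed in number between the stages, with 559 dorsal and 822 ventral cells of 2354 at E9.5 and 70 dorsal and 12 ventral cells of 205 at E11.5. Among dorsal progenitors alone, the log2 ratio of E11.5 to E9.5 was 0.98 (0.78 to 1.17) for Pax3, 2.34 (1.72 to 2.94) for Pax7 and -0.31 (-0.71 to 0.07) for Pax6. The differences of Pax3 and Pax7 were thus smaller there than over all progenitors, and the interval of Pax6 included 0.

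Muscle and neural progenitors changed places in their Pax3 level between the stages. Muscle exceeded neural progenitors by a log2 ratio of 1.78 (1.68 to 1.88) at E9.5, and was below them by -1.25 (-1.42 to -1.08) at E11.5. Muscle progenitors alone were also below neural progenitors at E11.5, by a log2 ratio of 0.37 (0.19 to 0.55) in favour of the neural cells. Pax7 was higher in the muscle progenitors than in the neural progenitors at that stage, by 1.53 (1.12 to 1.96).

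Neural progenitors were divided into dorsal, intermediate and ventral domains by at least 2 domain genes such as Msx1, Dbx1 and Nkx6-1, none of them a Pax gene. At E9.5 Pax3 was 164 (156 to 172) UPM in the 559 dorsal, 49.1 (37.9 to 62.6) in the 76 intermediate and 12.6 (10.6 to 14.8) in the 822 ventral cells. Pax7 was 8.49 (6.73 to 10.6) UPM in dorsal cells, 0.756 (0.0191 to 4.21) in intermediate and 0.860 (0.413 to 1.58) in ventral cells. Both were dorsal, with log2 ratios of dorsal to ventral cells of 3.71 (3.46 to 3.96) and 3.30 (2.35 to 4.42). Pax6 had another order, with 271 (244 to 301) UPM in intermediate, 95.6 (89.5 to 102) in dorsal and 66.8 (62.2 to 71.6) in ventral cells, and intermediate exceeded dorsal cells by a log2 ratio of 1.50 (1.32 to 1.68). At E11.5 the 70 dorsal cells held Pax3 at 323 (285 to 365), Pax7 at 43.1 (29.8 to 60.2) and Pax6 at 77.3 (59.1 to 99.3) UPM. The intermediate and ventral domains held 12 cells each at that stage. Pax6 was found in all 12 intermediate cells, at 331 (241 to 443) UPM, and Pax3 in 0 of the 12 ventral cells, too few to bound a share usefully.

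Single domain genes placed the lower limit of Pax6 more finely. At E9.5 Pax6 was 249 (231 to 268) UPM in cells with Dbx2, 222 (206 to 238) with Dbx1, 96.2 (91.1 to 102) with Nkx6-1 and 75.5 (69.8 to 81.4) with Olig2, which marks motor neuron progenitors. It was 15.0 (9.49 to 22.5) UPM with Nkx2-2, a gene of the domain below these, and 18.6 (14.9 to 22.9) and 13.1 (8.87 to 18.5) with the floor plate genes Foxa2 and Shh. The last 3 values did not differ beyond counting error and were all below that of the Olig2 cells. Dorsally, Pax6 was 113 (108 to 120) UPM with Msx1 and 60.5 (53.7 to 68.0) with Olig3.

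**Figure D3:**
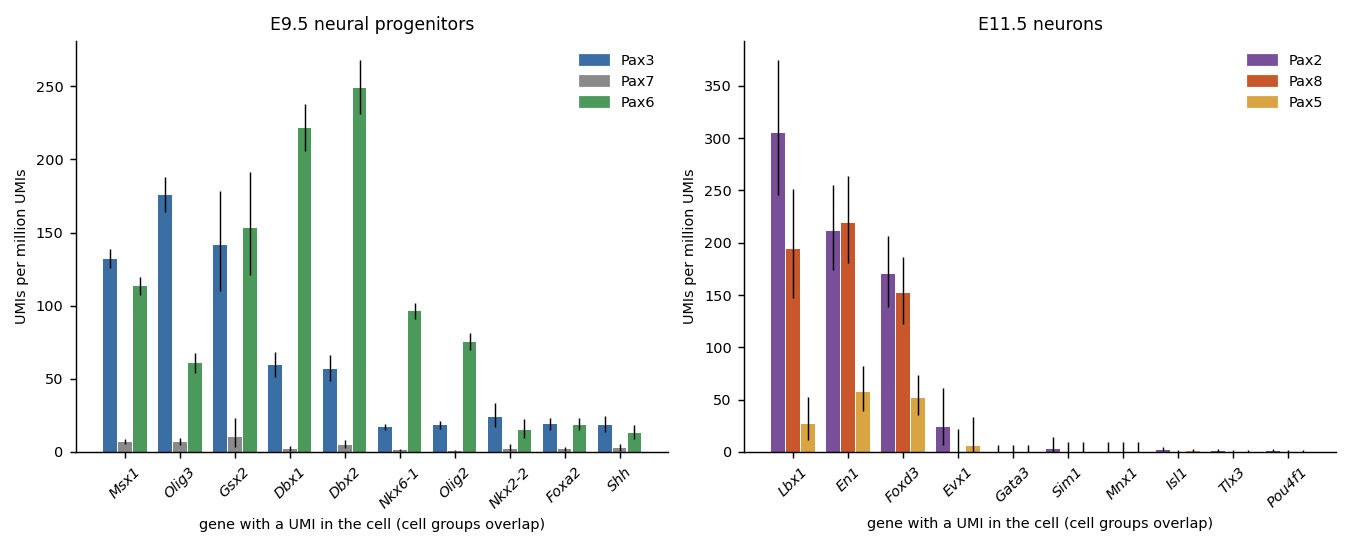
Left, levels of Pax3 (blue), Pax7 (grey) and Pax6 (green) in E9.5 neural progenitors with a UMI of the domain gene named, ordered from dorsal to ventral. Right, levels of Pax2 (purple), Pax8 (orange) and Pax5 (yellow) in E11.5 neurons with a UMI of the neuron type gene named. Vertical axes are UMIs per 1000000 UMIs, bars have exact 95% Poisson intervals that cover counting error only, and a cell can stand in several groups. Pax6 peaked in Dbx1 and Dbx2 cells, and the Pax2 subfamily was high in Lbx1, En1 and Foxd3 neurons.

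Co-detection in these progenitors is given within a domain only for Pax3 and Pax7 at E9.5. At E11.5, 33 of the 34 neural progenitors with Pax7 held Pax3 (97.1%, 84.7% to 99.9%), against 36.3% of those without Pax7, and 83.3% (58.6% to 96.4%) against 39.5% (31.6% to 47.7%) after thinning. At E9.5 the thinned shares were 41.0% (25.6% to 57.9%) and 20.7% (19.1% to 22.5%). Within the dorsal domain of E9.5 they were 52.6% (28.9% to 75.6%) and 52.8% (48.5% to 57.2%), so that no excess was seen there. Pax6 was not more frequent in cells with Pax3 by more than counting error after thinning, with 43.0% (38.6% to 47.6%) against 39.8% (37.5% to 42.1%) at E9.5 and 33.3% (22.9% to 45.2%) against 45.3% (35.0% to 55.8%) at E11.5.

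Among the gated classes of E9.5, Pax2 and Pax8 were highest in nephric cells. These were gated by genes of the nephric duct and its mesenchyme such as Lhx1, Emx2 and Gata3. Pax2 was 102 (89.1 to 117) UPM in 63.5% (55.5% to 71.0%) of the 159 cells and Pax8 was 157 (141 to 175) UPM in 70.4% (62.7% to 77.4%). After thinning the shares were 42.1% and 48.7%. At least 1 of Pax2, Pax5 and Pax8 was in 82.4% of the cells, and 83 cells held 2 of them. Pax2 was in 83 of the 112 cells with Pax8 (74.1%, 65.0% to 81.9%) and in 38.3% (24.5% to 53.6%) of those without, but at 5000 UMIs the shares of 48.6% (36.9% to 60.6%) and 35.9% (25.3% to 47.6%) overlapped in their intervals.

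The E9.5 nephric gate held unlike cells. The 126 cells with Lhx1, an early gene of the nephric lineage, had Pax2 at 120 (104 to 138) and Pax8 at 189 (168 to 211) UPM, and cells with Emx2 had 124 (107 to 144) and 187 (166 to 211). Lhx1, Emx2 and Six2 are gate markers of this class. In the 16 cells with Six2, a gene of nephron progenitors and of other mesenchyme, both stood at 19.2 (7.03 to 41.7) UPM. Pax9 was 12.9 (8.51 to 18.8) UPM in the whole gate, from 6 cells. Of its 27 UMIs 25 lay in the Six2 cells, where its level was 79.8 (51.7 to 118) UPM, and it was found in 0 of the 126 Lhx1 cells, which allows a share of up to 2.38%. At E11.5 the gate held 11 cells, with 6 Pax2 UMIs in 3 cells and 1 Pax8 UMI, and all of these UMIs were in cells with doublet scores among the highest 5% of the library. No stage difference in nephric cells was therefore read, although the values give log2 ratios of -1.50 (-2.96 to -0.35) for Pax2 and -4.71 (-10.01 to -2.22) for Pax8.

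At E11.5 the same genes were found in neurons, together with Pax5. Pax2 was 53.4 (47.1 to 60.4) UPM in 17.6% (14.1% to 21.6%) of the 425 neurons, Pax8 was 41.9 (36.3 to 48.1) UPM in 13.6% (10.5% to 17.3%), and Pax5 was 9.85 (7.23 to 13.1) UPM in 7.06% (4.81% to 9.92%). Of the 49 Pax5 UMIs in the E11.5 library 47 were in these neurons. In E11.5 neural progenitors, Pax2 had 3 UMIs, Pax8 had 1 and Pax5 had 0, and neurons exceeded progenitors by log2 ratios of 5.16 (3.60 to 7.45) for Pax2 and 6.39 (3.90 to 11.71) for Pax8. The 145 neurons of E9.5 held 2 UMIs of Pax2, 1 of Pax5 and 0 of Pax8.

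The neurons with these members were of a few kinds. In the 51 cells with En1, a gene of ventral inhibitory interneurons, Pax2 was 212 (174 to 255), Pax8 was 219 (181 to 263) and Pax5 was 57.7 (38.9 to 82.4) UPM. In the 35 with Lbx1, a gene of dorsal interneurons, they were 305 (246 to 374), 194 (148 to 251) and 26.8 (11.6 to 52.8) UPM, and in the 53 with Foxd3 they were 170 (139 to 207), 152 (122 to 186) and 51.7 (35.1 to 73.4). The intervals of Lbx1 and En1 cells overlapped for each of the 3 genes. Cells can hold several of these genes, and the groups overlap. The neurons with Isl1, Tlx3 or Pou4f1, genes of motor, sensory and some dorsal neurons, numbered 144, 108 and 98 and held Pax2 at 1.68 (0.457 to 4.29), 0.505 (0.0128 to 2.81) and 0.581 (0.0147 to 3.24) UPM. All 3 members had 0 UMIs in the 42 neurons with Gata3 and the 30 with Mnx1. In the 42 Gata3 neurons this allows a share of up to 7.14%.

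The 3 members were found in the same neurons. Pax2 was in 53 of the 58 neurons with Pax8 (91.4%, 81.0% to 97.1%) and in 5.99% of the others, and in 73.9% (58.9% to 85.7%) and 7.17% (4.49% to 10.7%) after thinning. It was in 24 of the 30 neurons with Pax5, and Pax8 was in 23 of them. Of the 85 neurons with any of the 3, 29 held 1, 34 held 2 and 22 held all 3. The pairs in neurons and in nephric cells differed in that the thinned shares of Pax2 with and without Pax8 lay far apart in neurons and overlapped in nephric cells. At full depth the nephric intervals given above did not overlap. The neurons pool types with high and with almost no Pax2, and the part of this mix in the contrast was not tested.

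**Figure D4:**
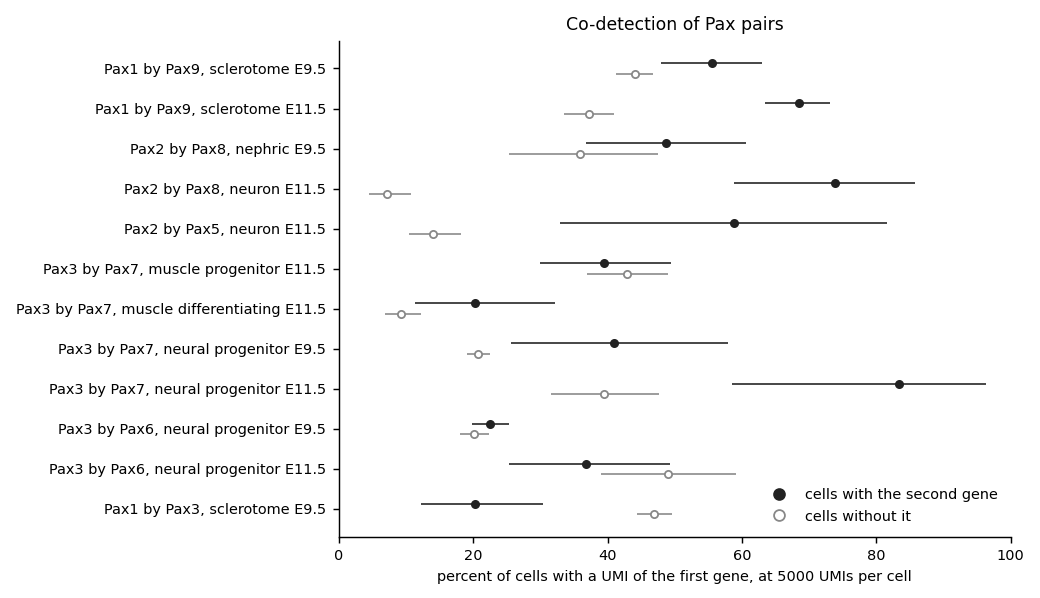
Percent of cells with a UMI of the first gene named, in cells with (filled) and without (open) a UMI of the second, with every cell thinned to 5000 UMIs and Clopper-Pearson 95% intervals that cover counting error only. Filled and open points lie farthest apart for Pax2 by Pax8 in E11.5 neurons (73.9% and 7.17%) and close together for Pax3 by Pax7 in E11.5 muscle progenitors (39.4% and 42.9%).

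Partners and targets known for each member were compared between cells with and without it, at 5000 UMIs per cell. In E11.5 muscle, 1.24% of genes were at least 2-fold higher and 5.17% at least 2-fold lower in cells with Pax3. Of the 10 measured genes of a list of 13, 3 were higher, namely Met, the receptor of migrating muscle precursors, with a log2 ratio of 1.78 (1.08 to 2.47), Eya1, a transcriptional coactivator, with 1.77 (1.24 to 2.30), and Dmrt2, a dermomyotome gene, with 1.32 (0.86 to 1.78). Myod1 was lower, with -1.84 (-2.07 to -1.62). The median of the list was 0.33 and that of all genes 0.06. For Pax7 the shares of all genes were 0.775% and 5.03%, and of the same 10 genes Fgfr4 was higher with 1.33 (0.61 to 2.03) and Myod1 lower with -1.42 (-1.65 to -1.20). At E9.5, where 0.278% and 0.429% of genes passed for Pax3, 0 of 8 measured partners did. Met, Dmrt2, Fgfr4 and Myod1 are also gate markers of muscle. The E11.5 comparisons pool progenitors and differentiating cells, between which the levels of Pax3 and Pax7 differed. The part of this in the partner values was not tested.

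In sclerotome the partners differed little. With Pax1 at E11.5, where 0.661% of genes were at least 2-fold higher and 1.73% lower, 1 of 9 measured partners was higher, the cartilage matrix gene Acan with a log2 ratio of 1.26 (0.52 to 2.04). With Pax9, where the shares were 0.324% and 1.15%, it was again Acan, with 1.22 (0.52 to 1.92). At E9.5, 0 of 8 passed with Pax1, beside 0.337% and 0.674% of all genes, and 0 of 8 with Pax9, beside 0.493% and 1.38%. Sox9, a driver of cartilage formation, was higher with Pax1 at both stages by less, with 0.41 (0.27 to 0.55) and 0.20 (0.10 to 0.30). Meox2 was higher with Pax1 at E9.5, with 0.36 (0.12 to 0.60), and lower at E11.5, with -0.85 (-1.21 to -0.51). Acan and Sox9 are also gate markers of sclerotome.

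In E9.5 nephric cells, 0 of 5 measured partners passed for Pax2, beside 0.243% of all genes higher and 0.406% lower, and 0 of 5 for Pax8, beside 0.568% and 0.527%. Ret, a receptor of the nephric duct, had log2 ratios of -0.93 (-1.73 to -0.18) with Pax2 and 0.69 (-0.002 to 1.41) with Pax8, and Lhx1 had 0.57 (0.21 to 0.94) and 0.41 (0.05 to 0.78). The values of Ret for Pax2 and Pax8 thus differed in sign, but the interval with Pax8 included 0. Those of Lhx1 did not differ in sign, and both genes are gate markers of the class.

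In neural progenitors Pax6 went with genes of the intermediate domain and of neurogenesis. At E9.5, where 0.248% of genes were at least 2-fold higher and 1.43% lower, Dbx1 was higher with a log2 ratio of 1.96 (1.51 to 2.43) among 9 measured partners, and Nkx2-2 and Nkx6-1 were lower with -3.67 (-5.99 to -2.04) and -1.01 (-1.23 to -0.80). At E11.5, where the shares were 0.873% and 0.803%, 4 of 6 were higher, namely Dbx1 with 3.27 (2.25 to 4.47), the proneural genes Neurog2 with 1.73 (1.16 to 2.33) and Neurog1 with 1.34 (0.47 to 2.24), and the Notch target Hes5 with 1.01 (0.80 to 1.22). At E9.5 the log2 ratio of Neurog2 was -0.02 (-0.22 to 0.19). Hes5 is also a gate marker of neural progenitors.

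Members of a subfamily were alike in their levels over 21 classes of at least 50 cells from both libraries. Pearson's r of log2(UPM + 1) was 0.97 for Pax2 and Pax8, 0.81 for Pax2 and Pax5, 0.74 for Pax5 and Pax8, 0.67 for Pax3 and Pax7 and 0.53 for Pax1 and Pax9. Over the 23 pairs of different subfamilies it lay between -0.24 and 0.48. Pax5 had 76 UMIs in all, 47 of them in E11.5 neurons, so the r values with Pax5 rest on few UMIs. The classes share libraries, some hold parts of the same tissue, and they differ in depth, so these values are descriptions. Among the pairs of a subfamily, the order of likeness was not that of identity in the printed stretch, which was chosen for identity to Pax3. There Pax3 and Pax7 shared the most bases, while Pax2 and Pax8 had the highest r.

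**Figure D5:**
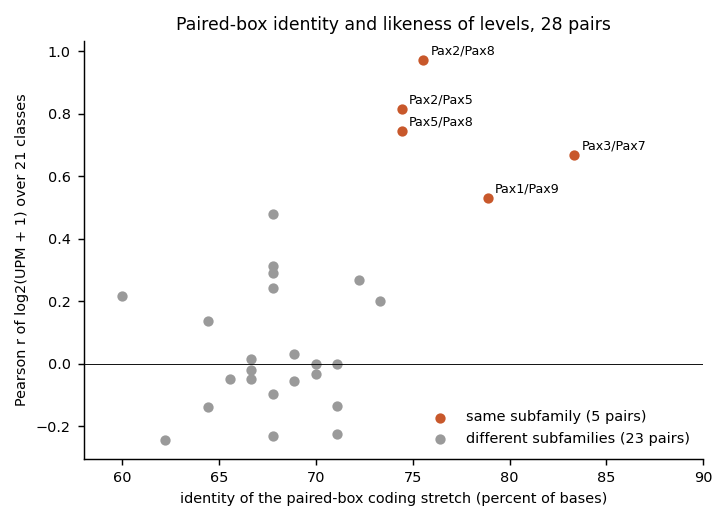
Identity of the coding stretch of the paired box in percent of bases (horizontal axis) against Pearson's r of log2(UPM + 1) over 21 classes (vertical axis) for the 28 pairs of members. The stretch was chosen for identity to Pax3. Pairs with Pax5 rest on its 76 UMIs. The 5 pairs of a subfamily (orange) lie above the 23 other pairs (grey) on both axes, from 0.53 to 0.97 in r against -0.24 to 0.48.

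The genes most like each member by the same measure, among 13060 with at least 200 UMIs that were neither members nor gate markers, were as follows. Pax6 was nearest to Fgf15 (r of 0.95), Gbx1 (0.94) and Gm27239 (0.93). Pax2 was nearest to Lhx1os (0.92), 2610028E06Rik (0.90) and Tmem150c (0.88), and Pax8 to Lhx1os (0.90), 2610028E06Rik (0.84) and Plpp4 (0.82), so that the first 2 were the same genes. Pax1 was nearest to AI646519 (0.93), which overlaps it on the opposite strand and whose reads cannot be told apart from those of Pax1 unless strand was used in counting, and then to Abca5 and Lum (both 0.79). Pax7 was nearest to Lrrn1 (0.82), Fgf5 (0.79) and Arl4a (0.76), Pax9 to Itga11 (0.79), Gm4640 (0.76) and Angpt4 (0.74), and Pax3 to Ppp1r1a (0.76), Peg12 (0.71) and Arhgef26 (0.70). Pax5, with 76 UMIs in all, was not ranked.

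Among the cells with no gate, 4080 in the earlier and 5023 in the later library, Pax3 stood at 87.1 (84.7 to 89.6) and 14.1 (13.2 to 15.1) UPM, Pax1 at 51.1 (49.3 to 53.1) and 71.5 (69.4 to 73.6), and Pax9 at 8.93 (8.17 to 9.76) and 21.9 (20.8 to 23.1). These cells therefore held a large part of the Pax3, Pax1 and Pax9 UMIs, with 4836 of the 10027 Pax3 UMIs at E9.5 and 4583 of the 9622 Pax1 UMIs at E11.5. The same was so for Pax8 at E9.5. Of its 740 UMIs, 323 were in 159 ungated cells and 329 in 112 nephric cells. Pax5 was in 0 of the 5023 ungated E11.5 cells, which allows a share of up to 0.0597%. Over all kept cells, 22.4% of genes were at least 2-fold higher and 5.08% lower at E11.5, and of the 8 members Pax7 and Pax9 were higher and Pax3, Pax6 and Pax8 lower. Those values mix the make-up of the dissected tissue with levels within it, and the 2 cannot be told apart over all cells.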

How the data were processed

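Single-cell RNA-sequencing counts of 1 library per stage were analysed. The whole-number UMI counts per gene and cell were deposited by the authors, who made them with Cell Ranger 3.0.1 on mm10, per the labels. Strand use in counting is not given in the sources used here. The libraries held 149368952 (E9.5) and 136655763 (E11.5) UMIs in 10121 and 10167 barcodes, beside 10000 cells per stage stated in the study, and 9851 and 9595 passed the filter above, as with the study's stated filters, with medians of 3470 and 3622 genes. No annotation of cells was used.

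Tissue gates used 13 lists of 10 marker genes. Members, lists, gates and alternatives were chosen with earlier results of these data known, and the members named were all 8, with partners from set lists and the 3 genes most like each member. Levels were summed over cells, and a fold used the ratio of 2 Poisson counts. For shares, each cell was thinned to 5000 UMIs, and the 537 and 727 cells with fewer were not used. Genes counted as at least 2-fold different needed 50 UMIs over both groups. With 1 library per stage no test between stages was made, and intervals cover counting error only. The automatic threshold of Scrublet (in scanpy 1.11.5) called 0 and 266 doublets, so doublets were kept, and an alternative left out the highest 5% of scores, 493 and 480 cells. Other alternatives changed the gates, thinning, averaging, the filter on genes (at least 1000) and the UMIs that count as detection. Sequences came from GENCODE M21 (GRCm38), and no proteins were used. Python 3.11.15, numpy 2.4.6, scipy 1.17.1 and pandas 2.3.3 were used, and the ratio, thinning and gate steps were tested on simulated data. Some results are not reported here.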

Additional observations from a re-analysis of the deposited data

Results flagged for a closer look

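Some members differed between the stages in opposite directions, or to unlike extents, in different classes. None of these differences between classes was tested, since each stage is 1 library.

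For Pax3 the log2 ratio of E11.5 to E9.5 was 1.35 in neural progenitors, and it was -1.69 in muscle, -6.14 in sclerotome, -1.58 in neurons, -1.31 in endothelial cells and -1.78 in neural crest. Pax3 was thus higher at E11.5 in neural progenitors and lower in each of the other classes with a counting interval clear of 0. For Pax1 the ratio was 0.74 in sclerotome and -0.85 in muscle, and for Pax6 it was 0.20 in neural progenitors, -2.50 in neurons and -4.19 in neural crest, where Pax6 had 24 UMIs at E9.5 and 1 UMI at E11.5. The endothelial value of Pax3 rests on 66 and 7 UMIs and has an interval of -2.68 to -0.18. The Pax3 level in the class taken as background thus moved in the same direction as in muscle, sclerotome and neural crest. Its part in those results was not tested.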

How the results depend on the processing

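Over 12 results, 77 alternative values were computed, of which 59 moved by less than counting error, 15 moved by more and 3 turned direction. A further 23 were added after the data were seen, with 12, 9 and 2. A gate of at least 4 markers and a lead of 3 gave stage log2 ratios of -2.10 for Pax3 and 1.92 for Pax7 in muscle, 0.85 for Pax1 and 2.34 for Pax9 in sclerotome, and turned Pax2 in nephric cells from -1.50 to 0.092. Gates on thinned counts gave -1.90 for Pax3 in muscle and 0.66 for Pax1. Levels thinned to 5000 UMIs gave -1.50 for Pax3 and 3.10 for Pax7 in muscle and -1.06 for Pax6 in the neural tube, and turned Pax3 in the neural tube from -0.09 to 0.21. A mean over cells gave 0.81 for Pax1, -1.13 for Pax6 in the neural tube and 0.11 for Pax3 there, again turned. Of Pax7 cells in E11.5 muscle, the share with Pax3 went from 58.4% to 33.0% with thinning and 44.4% with at least 2 UMIs of both genes. Of Pax9 cells in E11.5 sclerotome, the share with Pax1 went from 74.4% to 68.5% with thinning and 70.5% with a gate of at least 2 markers and a lead of 1.

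With progenitors alone, added later, the ratios were -0.88 for Pax3 and 3.26 for Pax7 in muscle and 2.71 for Pax7 in the neural tube, those of Pax3 and Pax6 in the neural tube turned to 1.35 and 0.20, and the Pax7 share was 66.5%. Differentiating muscle cells alone gave -1.46, 2.08 and 39.9%, and neurons alone -1.58 for Pax3 and -2.50 for Pax6. Leaving out the 30 shared barcodes moved no value by more than counting error. The cause of these shifts was not tested. Pax7 in neurons alone (0 and 14 UMIs) gave no ratio. Without cells of high doublet score, or with thinning, no Pax2 or Pax8 UMI was left in E11.5 nephric cells and no ratio was given. Depth limits Pax5, which had 27 and 49 UMIs, and the E11.5 nephric class of 11 cells. No paired analysis was possible because each stage has 1 library and the labels carry no replicate numbers.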

Other observations

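Pax1 and Pax9 were also found in the dermis and tendon class of E11.5, gated by genes such as Twist2 and Scx. Pax1 stood at 18.6 (16.0 to 21.4) UPM in 7.86% of its 700 cells and Pax9 at 7.91 (6.25 to 9.87) UPM in 4.86%. In the 81 endothelial cells the shares were 6.17% (2.03% to 13.8%) and 1.23% (0.0313% to 6.69%), and neither gene's share was above these beyond counting error. The level of Pax1 in endothelial cells was 6.12 (2.80 to 11.6) UPM and that of Pax9 0.680 (0.0172 to 3.79) UPM, both below the dermis and tendon class.

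Pax8 was found in a few dorsal neural progenitors of E9.5, with 1 UMI in each such cell. It stood at 2.02 (1.21 to 3.15) UPM in 3.40% of the 559 dorsal cells, above the 0.287% of endothelial cells, and had 1 UMI in the 822 ventral cells. After thinning the dorsal share was 0.914% (0.297% to 2.12%). The thinned endothelial share was 0 of 321 cells, with a Clopper-Pearson bound of 1.14%, so the intervals overlapped. Pax5 had 15 UMIs in 15 of the E9.5 neural progenitors, a share of 0.637%, which is below the 0.860% that 0 of 349 endothelial cells allows, so it was not distinguished from background.

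Pax9 was found in 2.82% of the E11.5 neurons, at 7.75 UPM, and Pax1 in 3.76%, and both shares lay within the intervals of the endothelial shares. The Pax9 level, however, was above the interval of its endothelial level given above. The neurons also had fewer UMIs per cell than the endothelial cells. No explanation of these values was tested.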
